A study of Mus musculus with 8 samples.

Results

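Immediate early genes are the genes that cells switch on within minutes of a stimulus, from transcription factors already present. The 9 examined here are the transcription factor genes Egr1, Egr2 and Egr3, the co-repressor gene Nab2, the immediate early response genes Ier2 and Ier3, the nuclear receptor gene Nr4a1, the mRNA decay factor gene Zfp36 and the proto-oncogene Myc. They were matched by symbol in the probe annotation of the array and were found on 10 of its 25697 probes, 2 of them for Myc. The fit covered 16593 genes. The study measured messenger RNA in peritoneal macrophages, the phagocytes that live in the abdominal cavity, taken from naïve mice of the C57BL/6 strain. The mice were either WT or lacked the Fcγ chain, named FcgKO in the labels. This chain, encoded by Fcer1g, is the membrane adaptor through which activating Fc receptors and several other receptors signal. After plating overnight in medium with 10% serum and 15% L929 supernatant as a source of M-CSF, cells that had not adhered were discarded. Both genotypes were then left unstimulated or given 10 ng/ml of IFNγ, a macrophage-activating cytokine, over 6 h. Each of the 4 groups held 2 samples on 1 bead array each. The labels do not say whether the samples of a group came from separate mice, so every p-value rests on the spread of these samples alone, and that spread may be technical. The age of the mice and the way the knockout was made are not given in the sources used here.

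EGR proteins are zinc finger transcription factors that link growth factor, cytokine and immunoreceptor signals, mostly through the ERK kinases and serum response factor, to slower gene programmes. NAB2 binds EGR proteins and represses their activity, and its gene is itself an EGR target. In macrophages, Egr1 and Egr2 accompany differentiation under M-CSF, Ier3 is a stress and NF-κB target that affects survival, and tristetraprolin, the product of Zfp36, binds AU-rich elements and speeds the decay of cytokine mRNAs such as that of Tnf. Because a burst of immediate early transcription is usually over within hours, a sample taken after 6 h shows the level that is left or maintained.

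The labels held for the deleted gene. Fcer1g lay at 17570 and 18350 in deposited intensity in unstimulated WT samples and at 16990 and 18350 after IFNγ. It lay at 95.7 and 95.6 in unstimulated FcgKO samples and at 107 and 98.5 with IFNγ, about the array median, which was 103 on each array. All 8 measured macrophage markers, among them Adgre1 and Lyz2, were above the array median on all 8 arrays, while the 4 measured eosinophil markers were under it on all of them. Also above it on all 8 arrays were 8 of 9 mast cell, 4 of 5 B cell, 3 of 5 T cell and 2 of 6 neutrophil markers. The check therefore does not show that the cultures held macrophages alone. The log2 intensities of the replicates correlated across probes, which are not independent replicates, with r from 0.996 to 0.9972.

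The results below turn on Egr2, Ier3 and Zfp36. Their promoters are shown because 2 of these genes have a match to the serum response element, for which immediate early genes are known. Each sequence, from RefSeq on GRCm38.p6, runs from 250 bases before to 50 after an annotated start, 5′ to 3′ on the strand of the gene. The table held 5 of the 9 genes and 5 starts for Egr2, of which 1 is shown, chosen after the motif search. The Egr2 starts differ: 4 of their 5 windows hold a CArG box, another holds none but has an E-box, and 1 of the 4 has no NF-κB site. Of the 4, the windows that overlap share the same CArG box, so the 4 are not separate occurrences. Capitals mark matches, on either strand, to the CArG box (the serum response element), the EGR site GCGNGGGCG or the cAMP response element TGACGTCA.
Egr2, chr10:67537619-67537918, plus strand: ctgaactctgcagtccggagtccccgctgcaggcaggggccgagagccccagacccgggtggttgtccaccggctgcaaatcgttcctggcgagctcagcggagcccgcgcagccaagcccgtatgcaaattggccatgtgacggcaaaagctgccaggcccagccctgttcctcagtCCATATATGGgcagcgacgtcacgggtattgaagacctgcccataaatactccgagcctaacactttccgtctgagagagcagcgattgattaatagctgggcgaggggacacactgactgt
Ier3, chr17:35821463-35821762, plus strand: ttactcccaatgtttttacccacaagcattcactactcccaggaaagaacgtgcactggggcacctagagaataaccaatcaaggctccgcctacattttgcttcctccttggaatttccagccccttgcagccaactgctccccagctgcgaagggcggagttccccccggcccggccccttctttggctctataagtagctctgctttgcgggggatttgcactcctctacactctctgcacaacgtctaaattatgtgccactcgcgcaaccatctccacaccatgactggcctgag
Zfp36, chr7:28379179-28379478, minus strand: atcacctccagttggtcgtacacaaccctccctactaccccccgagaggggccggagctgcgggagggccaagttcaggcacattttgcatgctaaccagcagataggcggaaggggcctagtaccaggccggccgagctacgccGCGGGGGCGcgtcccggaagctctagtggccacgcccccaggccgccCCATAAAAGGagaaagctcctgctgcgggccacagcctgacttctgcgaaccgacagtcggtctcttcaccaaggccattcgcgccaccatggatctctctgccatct
In Egr2 the capitals are a CArG box from base -72 to -63 before the start. In Zfp36 they are, in order, an EGR site from -105 to -97 and a CArG box from -58 to -49. The Ier3 window held no match to these 3 motifs. A CArG box was present in 1.63% of all 32851 promoters of this length, an EGR site in 5.55% and a cAMP response element in 1.79%. The NF-κB site, left in lower case, was in 50.8% of promoters and in all 3 shown, and at -101 to -92 in Zfp36 it overlapped the EGR site. The E-box CACGTG, in 7.15%, and the NR4A site AAAGGTCA, in 1.51%, were in none of the 3 windows shown. A match is a description of these letters and was not tested as a binding site.

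The members fell into a bright set and a dim set. The probes of Egr1, Egr2, Ier3 and Zfp36 lay between 5.12 and 48.46 times the array median, above at least 88.4% of all probes on every array. The probe of Nab2 lay at 1.21 to 1.29 times the median, that of Egr3 at 1 to 1.13 times and the brighter Myc probe at 0.99 to 1.14 times. The probes of Ier2 and Nr4a1 and the other Myc probe were under the median on all 8 arrays, so no fold is given for them. Intensities of different probes are not compared with each other.

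**Figure D1:**
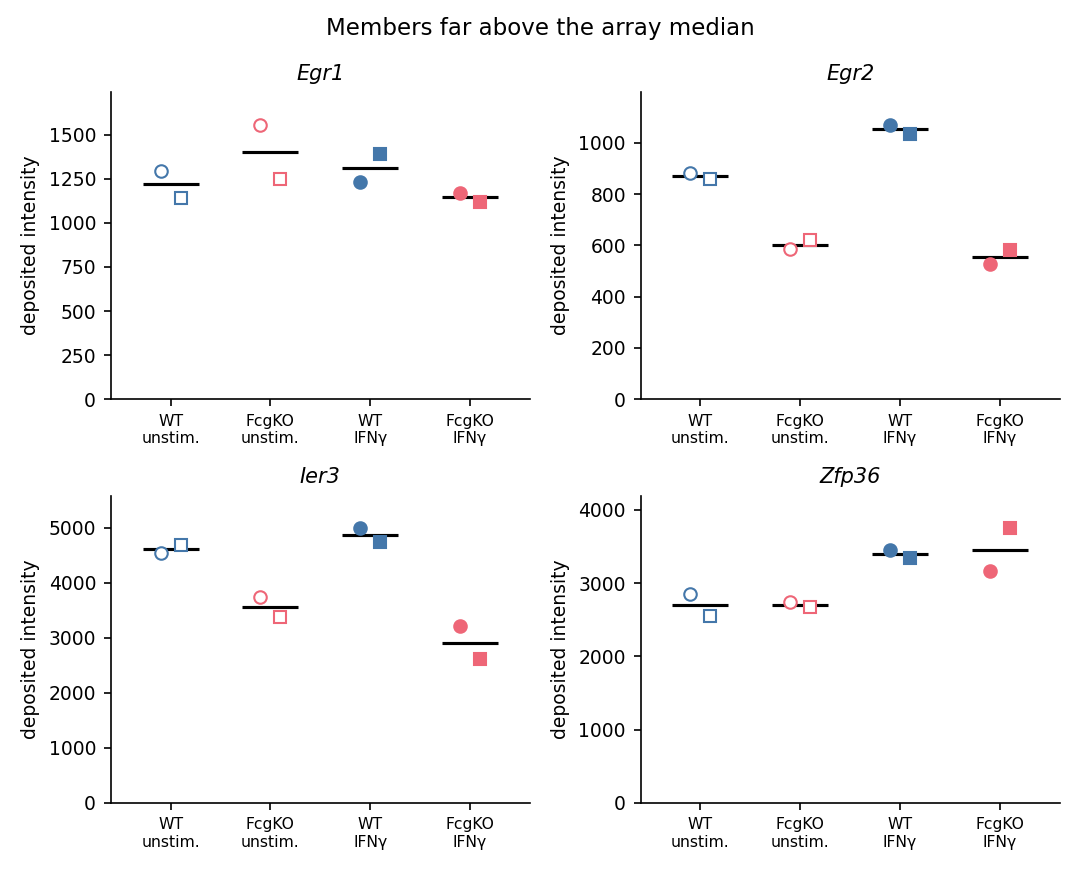
Deposited intensity (linear axis from 0) of Egr1, Egr2, Ier3 and Zfp36 in the 4 groups, with circles for replicate 1, squares for replicate 2, blue for WT, red for FcgKO, filled symbols for IFNγ and a bar at the mean of 2 samples. All 4 FcgKO samples lay below all 4 WT samples for Egr2 and Ier3, where the difference of Ier3 was called with IFNγ only, and Zfp36 was higher with IFNγ in both genotypes. How many of all genes separate in these ways was not counted.

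Calls below are limma adjusted p-values below 0.05 over all genes. With IFNγ, 2 of the 9 members rose in WT and 1 in FcgKO, beside 5.54% and 5.07% of all genes. In both genotypes 0 fell, beside 7.77% and 7.15% of all genes. In either direction 22.2% and 11.1% of the members were called, beside 13.3% and 12.2% of all genes. With 9 members, these counts are too small to set the members apart from all genes. Without IFNγ, 1 member was lower in FcgKO than in WT, and with IFNγ 2 were, beside 0.53% and 1.63% of all genes called lower. The median log2 difference of the 9 members was 0.03 in WT and -0.09 in FcgKO for the response, and 0.01 and -0.01 between the genotypes without and with IFNγ. The medians of all genes were -0.01, -0.02, 0 and 0. The member medians include Egr3, Nab2, Ier2, Nr4a1 and Myc, which lay near or under the array median. There the offset understates folds, so these medians cannot show whether the members differ from the average gene. The calls came from Egr2, Ier3 and Zfp36.

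Egr2, known in macrophages as a factor of differentiation and of the response to immunoreceptors, showed the largest difference between genotypes among the members. Its deposited intensity was 881 and 859 in unstimulated WT samples and 1069 and 1034 after IFNγ. The unstimulated FcgKO samples read 585 and 621, and those given IFNγ 528 and 583. All 4 FcgKO samples lay below all 4 WT samples. For how many of all genes the samples separate in such a way was not counted, here or for the members below. In group means the order was FcgKO with IFNγ at 555.3 ± 39 (SD, n = 2), FcgKO unstimulated at 603 ± 25.7, WT unstimulated at 870.1 ± 15.5 and WT with IFNγ at 1052 ± 25.2. Between the lower 2 of these groups no difference was called (limma adjusted p = 0.406), and the other neighbours differed in the tests that follow.

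With IFNγ, Egr2 was 1.96-fold lower in FcgKO on the background-corrected scale (log2 -0.97, SE 0.08, limma adjusted p = 6.54e-05) and 1.9-fold lower in deposited intensity. This gene ranked 23 of 16593 by p in the comparison, and the call held in all 16 alternative settings, with adjusted p from 3.96e-06 to 0.00275. Without IFNγ it was 1.47-fold lower (log2 -0.56, SE 0.08, limma adjusted p = 0.00653). That call was lost without FcgKO unstimulated replicate 1 (adjusted p = 0.0912), without replicate 2 of that group (0.0505) and with a background offset of 16 (0.0745), while the log2 difference stayed between -0.60 and -0.51 over the alternatives. In cultures of this kind, fewer cells that hold a transcript and less of it per cell cannot be told apart.

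In WT, Egr2 rose with IFNγ by 0.28 on the log2 scale (SE 0.08, limma adjusted p = 0.0297), a 1.22-fold rise. The call was lost without either unstimulated WT replicate (adjusted p = 0.0774 and 0.133), without either WT replicate with IFNγ (0.164 and 0.0971), with an offset of 16 (0.193) and with an intensity trend and robust prior (0.0719). The log2 rise ranged from 0.26 to 0.31 over the 16 alternatives. In FcgKO both samples with IFNγ lay below both unstimulated ones, by a log2 difference of -0.13 (95% interval -0.30 to 0.04), which was not called and ran from -0.20 without FcgKO IFNγ replicate 2 to -0.05 without replicate 1. The difference between the responses was -0.41 (SE 0.11), with an unadjusted p of 0.00292 and a limma adjusted p = 0.388 over all genes, so it did not pass the correction.

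Egr1, the best known member of the family and a target of serum response factor, did not follow Egr2. It lay at 1295 and 1142 in unstimulated WT samples and at 1234 and 1391 with IFNγ. In FcgKO it lay at 1555 and 1251 without and at 1169 and 1119 with IFNγ. The WT groups overlapped, and the FcgKO samples with IFNγ lay below all others but 1 unstimulated WT sample, whose value of 1142 stood between them. No comparison was called. The log2 difference of FcgKO from WT was 0.20 (95% interval -0.04 to 0.45) without and -0.20 (95% interval -0.45 to 0.04) with IFNγ. Without IFNγ it was 0.042 when FcgKO unstimulated replicate 1 was left out and 0.365 without replicate 2, and with IFNγ it was -0.29 without WT IFNγ replicate 1 and -0.11 without replicate 2. The response in FcgKO was -0.29 (SE 0.11, limma adjusted p = 0.134), and it was called only without FcgKO unstimulated replicate 2 (adjusted p = 0.038), at a value of -0.46, against -0.13 without replicate 1 of that group. The response in WT was 0.11 (95% interval -0.13 to 0.36), from 0.017 without WT unstimulated replicate 2 to 0.205 without replicate 1.

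Egr3, a close relative with the same DNA site, was measured at 102.9 to 116.7 over the 8 arrays and its groups overlapped in every comparison. Nab2, the repressor of EGR activity, ranged from 124.3 to 132.9, and its groups overlapped too. Neither gene was called in any comparison, with adjusted p-values of at least 0.806 from limma. For Nab2 the 95% interval of the log2 difference between genotypes ran from -0.17 to 0.15 without IFNγ and from -0.16 to 0.17 with it. At levels so close to the array median, a change in a dim transcript may not be detectable.

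Ier3, whose product affects survival and ERK signalling, was the second member that was lower in FcgKO. Unstimulated WT samples read 4540 and 4696 in deposited intensity, and IFNγ-treated WT samples 4990 and 4739. The FcgKO samples read 3748 and 3374 without the cytokine and 3208 and 2611 with it. As for Egr2, all 4 FcgKO samples lay below all 4 WT samples, and the order of the group means was the same, from 2909 ± 422 (SD, n = 2) in FcgKO with IFNγ over 3561 ± 265 and 4618 ± 110 to 4864 ± 178 in WT with IFNγ. Such an order was not counted over all genes and does not stand in for a call. With IFNγ, Ier3 was 1.69-fold lower in FcgKO (log2 -0.76, SE 0.10, limma adjusted p = 0.00194), a call that held in all 16 alternatives. Without IFNγ, the log2 difference was -0.38 (95% interval -0.60 to -0.16) and did not pass (adjusted p = 0.157).

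The response of Ier3 in WT was a log2 difference of 0.08 (95% interval -0.14 to 0.29, limma adjusted p = 0.78). In FcgKO the difference was -0.30 (SE 0.10) with a limma adjusted p = 0.082. It was -0.45 without FcgKO IFNγ replicate 1, where it passed (0.0131), and -0.15 without replicate 2, and it passed with a block for the replicate number (0.0419). The responses differed by -0.38 (SE 0.14), with an unadjusted p of 0.0218 and an adjusted p = 0.586, and by -0.53 and -0.23 without FcgKO IFNγ replicates 1 and 2. Ier2, a nuclear protein gene that serum induces with the EGR genes, was under the array median on all 8 arrays, at 91.9 to 99.4, and was called in no comparison.

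Zfp36 followed IFNγ and not the genotype. Its intensity was 2849 and 2555 in unstimulated WT samples and 3457 and 3347 with IFNγ. In FcgKO it was 2744 and 2673 without and 3167 and 3748 with IFNγ. The 4 samples with IFNγ all lay above the 4 without, and the genotypes overlapped in both conditions. IFNγ raised it by 0.34 on the log2 scale in WT (SE 0.09, limma adjusted p = 0.0308) and by 0.35 in FcgKO (SE 0.09, adjusted p = 0.0279), 1.26-fold and 1.28-fold. Its promoter window is the last of those shown above.

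The interval of the Zfp36 difference between the genotypes ran from -0.20 to 0.21 without and from -0.18 to 0.22 with IFNγ, on the log2 scale. The difference of the responses was 0.01 (95% interval -0.27 to 0.30). The small rises depended on single arrays, and that in FcgKO was 0.228 without FcgKO IFNγ replicate 2 and 0.474 without replicate 1. The call in WT was lost without WT IFNγ replicate 1 (adjusted p = 0.167) or 2 (0.115), without WT unstimulated replicate 2 (0.199), without either unstimulated FcgKO replicate (0.0526 for both) and with an offset of 16 (0.149). In FcgKO it was lost without either unstimulated replicate (0.113 and 0.151), without FcgKO IFNγ replicate 2 (0.216) and with the offset of 16 (0.139).

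Nr4a1, an orphan nuclear receptor induced by many macrophage stimuli, was under the array median on all 8 arrays, at 88.4 to 95.5, and was called in no comparison. Myc, which drives growth and ribosome synthesis, was near the lower end of the scale. Its brighter probe read 117 and 108 in unstimulated WT samples and 103 and 101 with IFNγ. In FcgKO it read 113 and 115 without and 102 and 102 with IFNγ. All 4 samples with IFNγ lay below the 4 without. The log2 differences of -0.20 in WT (SE 0.07, limma adjusted p = 0.123) and -0.25 in FcgKO (SE 0.07, adjusted p = 0.0601) did not pass. The WT value was -0.11 without WT unstimulated replicate 1 and -0.29 without replicate 2. The FcgKO response passed without either unstimulated WT replicate (0.038 for both). In FcgKO, both samples with IFNγ were under the array median, and unstimulated samples were at least 1.11-fold higher in deposited intensity. The second Myc probe stayed under the median on all arrays, at 85.6 to 90.5, and no fold is given for it.

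**Figure D2:**
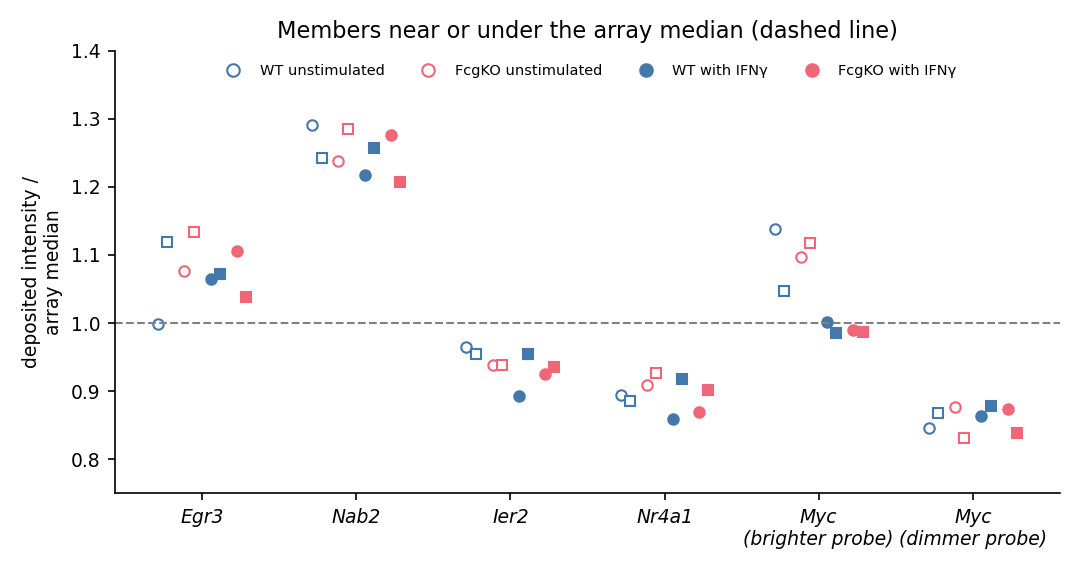
Deposited intensity divided by the median of its array (linear axis that does not start at 0) for Egr3, Nab2, Ier2, Nr4a1 and both Myc probes, with circles for replicate 1, squares for replicate 2, blue for WT, red for FcgKO and filled symbols for IFNγ. Nab2 lay at 1.21 to 1.29, Ier2 and Nr4a1 under the dashed line at 1, and the brighter Myc probe lay close to 1 on the 4 arrays with IFNγ.

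**Figure D3:**
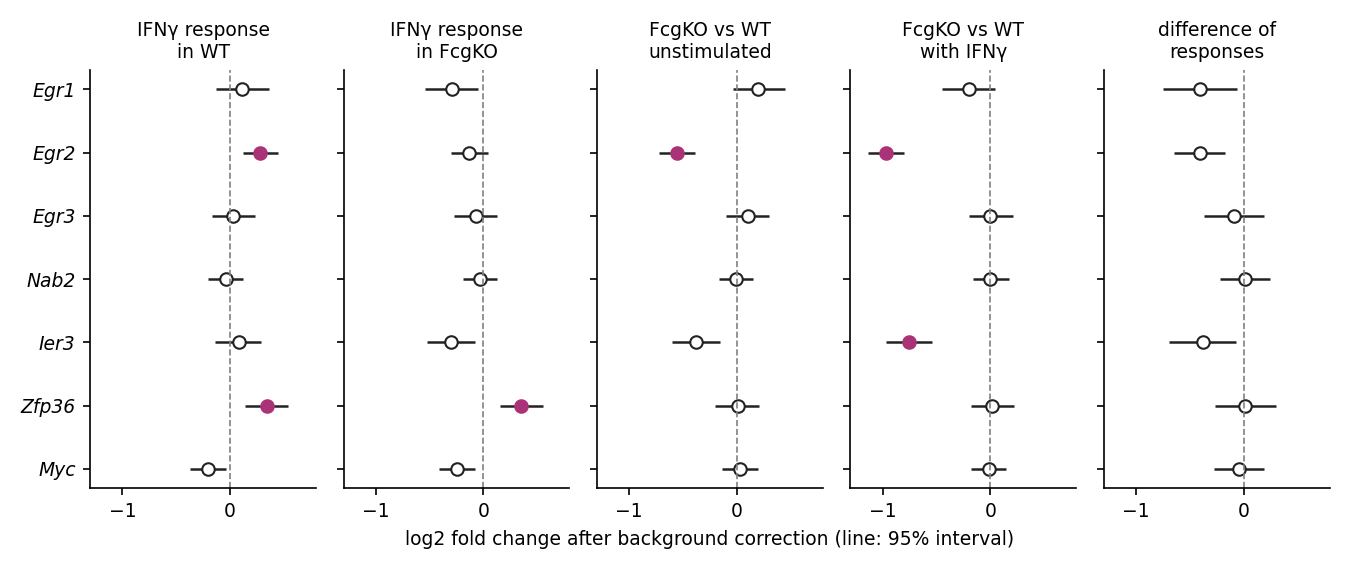
Log2 difference of the 7 members with a probe over the array median on any array, after background correction in the 5 comparisons, with 95% intervals from limma as lines, and filled points for adjusted p below 0.05. The filled points are Egr2 and Zfp36 in the WT response, Zfp36 in the FcgKO response, Egr2 between unstimulated genotypes, and Egr2 and Ier3 between genotypes with IFNγ.

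No member was called for a difference between the responses of the genotypes, beside 0.0181% of all genes (0.00603% with a higher and 0.0121% with a lower response in FcgKO). At an unadjusted p below 0.05, 3 of the 9 members were found, Egr1, Egr2 and Ier3, each with a lower response in FcgKO, beside 7.18% of all genes at that threshold. For the other comparisons that share was 22.2% in the WT response, 21.6% in the FcgKO response, 8.41% between unstimulated genotypes and 12.5% between genotypes with IFNγ. At that threshold Egr2 and Zfp36 rose and Myc fell in the WT response. In the FcgKO response Zfp36 rose and Egr1, Ier3 and Myc fell. Egr2 and Ier3 were lower in FcgKO in both comparisons of the genotypes. The response comparisons share no sample with each other, but each of them shares its groups with the comparisons of the genotypes.

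The rest of the immediate early programme was described from a list of 40 other genes, 36 of them measured. In WT, 8 rose with IFNγ and 4 fell, beside 5.54% and 7.77% of all genes, and in FcgKO 6 rose and 6 fell, beside 5.07% and 7.15%. Csrnp1, a nuclear factor gene (log2 1.15, adjusted p = 4.71e-06), and the stress factor gene Atf3 (0.85, adjusted p = 0.00057) led the rises in WT, and Dusp1, a phosphatase gene of MAP kinases, fell (-0.78, adjusted p = 0.00906). The Dusp1 call in WT was lost without either WT replicate with IFNγ (highest adjusted p = 0.0698). The median log2 response of the list was 0.07 in WT and 0.03 in FcgKO, beside -0.01 and -0.02 for all genes. The counts depended on single arrays. Without WT IFNγ replicate 1, 4 rose and 2 fell in WT, and without WT unstimulated replicate 2 or WT IFNγ replicate 2, 5 rose. Without FcgKO unstimulated replicate 2, 2 rose and 4 fell in FcgKO.

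Between unstimulated genotypes 1 of the 36 was lower in FcgKO, Fos (log2 -0.52, adjusted p = 0.0292), beside 0.53% of all genes, and 0 were higher, beside 0.289%. The Fos call held in 9 of 16 alternatives (highest adjusted p = 0.252) and was lost without either unstimulated FcgKO replicate, without either WT replicate with IFNγ and without WT unstimulated replicate 2. With IFNγ, 4 were lower and 1 was higher, beside 1.63% and 1.25% of all genes. The lower ones were the NF-κB inhibitor gene Tnfaip3 (log2 -0.84, adjusted p = 0.002), Dusp1 (-0.77, adjusted p = 0.036), the stress gene Gadd45b (-0.73, adjusted p = 0.00131) and the kinase gene Plk2 (-0.55, adjusted p = 0.00669). Tnfaip3 and Gadd45b kept their calls in all 16 alternatives, Plk2 in 15 (lost without WT IFNγ replicate 2) and Dusp1 in 9 (lost without either WT replicate with IFNγ and without FcgKO IFNγ replicate 2). Without WT IFNγ replicate 2, 2 of the list were lower and 0 higher, and without WT IFNγ replicate 1 or FcgKO IFNγ replicate 2, 3 were lower and 0 higher. Without WT unstimulated replicate 1 or 2, or FcgKO IFNγ replicate 1, 7 were lower, and with a replicate block 9 were. The list median was -0.17, beside 0 for all genes.

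Upstream of the EGR genes, 18 of 29 genes of a list for the path from RAS and ERK to serum response factor were measured. The list also holds Creb1, the p38 kinase gene Mapk14 and Mapkapk2, a kinase gene of the p38 path. Between the genotypes 0 of the 18 were called by limma in either condition or in any of the 16 alternatives, with 6 at an unadjusted p below 0.05 without IFNγ, beside 8.41% of all genes, and 4 with it, beside 12.5%. With IFNγ, 3 rose and 2 fell in WT, beside 5.54% and 7.77% of all genes, and 3 rose and 4 fell in FcgKO, beside 5.07% and 7.15%. Not all of these are genes of the ERK path. They include Mapk14, which fell in WT (log2 -0.51) and in FcgKO (from a mean of 831.9 to 695.4). They also include Mapkapk2, which rose in WT (0.46) and in FcgKO (0.58). The Mapk14 call in FcgKO and the Mapkapk2 call in WT each held in 9 of 16 alternatives. Without WT IFNγ replicate 2, 1 rose in WT. Without either unstimulated FcgKO replicate, 1 rose and 2 fell in FcgKO, and without FcgKO IFNγ replicate 2, 1 rose and 3 fell. Dusp6, the phosphatase gene of ERK that ERK itself induces, fell from a mean of 4180 to 2069 in WT (log2 -1.02, adjusted p = 9.79e-06) and from 4510 to 2429 in FcgKO (-0.90, adjusted p = 2.71e-05), and both calls held in all 16 alternatives. Spred1, an inhibitor gene of the same path, rose by 0.66 in WT (adjusted p = 0.00033), a call that held in all 16 alternatives. In FcgKO Spred1 rose by 0.4 (adjusted p = 0.00999), a call that held in 13 of 16.

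Downstream, 16 of 18 genes known as EGR targets were measured. With IFNγ, 5 of them were lower and 1 was higher in FcgKO than in WT, beside 1.63% and 1.25% of all genes, with a list median of -0.19. Hmox1, the haem oxygenase gene (log2 -1.10, adjusted p = 0.00229), Tnf (-1.05, adjusted p = 0.0023) and the cell cycle inhibitor gene Cdkn1a (-0.87, adjusted p = 0.00024) were lower, and the chemokine gene Ccl2 was higher (1.80, adjusted p = 0.00012). These 4 calls held in all 16 alternatives, and without WT IFNγ replicate 2 the lower ones numbered 3, whereas without FcgKO IFNγ replicate 1 there were 6 lower and 2 higher. Without IFNγ, 2 were higher and 2 lower, beside 0.289% and 0.53% of all genes, with a median of -0.05. These became 0 and 1 without either unstimulated FcgKO replicate, 0 and 2 without either WT replicate with IFNγ, and 1 and 2 without WT unstimulated replicate 1. In the response to IFNγ, 6 rose and 2 fell in WT, beside 5.54% and 7.77% of all genes, with 1 falling without WT unstimulated replicate 1 or WT IFNγ replicate 1. In FcgKO 7 rose and 2 fell, beside 5.07% and 7.15%, with 4 rising without FcgKO unstimulated replicate 2. Many of these genes also answer to NF-κB, and the part of EGR2 in their levels was not tested.

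Of the mRNAs known as targets of tristetraprolin, 20 of 20 were measured, and 6 of them are also in the list of EGR targets. With IFNγ, 7 were lower and 2 higher in FcgKO, beside 1.63% and 1.25% of all genes, with a list median of -0.66 beside 0 for all genes, while Zfp36 itself differed by 0.02. Beside Tnf and Ccl2, the neutrophil chemokine gene Cxcl2 (log2 -1.36, adjusted p = 0.00885) and the cytokine gene Il1a (-1.35, adjusted p = 0.0326) had the largest differences. The Cxcl2 call was lost without either WT replicate with IFNγ (highest adjusted p = 0.169), and that of Il1a held in 7 of 16 alternatives, being lost without either unstimulated FcgKO replicate, either WT replicate with IFNγ and FcgKO IFNγ replicate 2. Without WT IFNγ replicate 2, 1 of the list was lower and 1 higher, without WT IFNγ replicate 1 these were 3 and 1, without FcgKO IFNγ replicate 2 they were 4 and 2, and without FcgKO IFNγ replicate 1 they were 11 and 2. The direction of the median did not change in any of the 16 alternatives (-0.80 to -0.31). In the response to IFNγ the list went both ways, with 6 up and 4 down in WT, beside 5.54% and 7.77% of all genes, and 5 up and 7 down in FcgKO, beside 5.07% and 7.15%. In WT these became 4 and 2 without WT IFNγ replicate 1 and 3 and 3 without replicate 2. In FcgKO they became 3 and 5 without FcgKO unstimulated replicate 2 and 8 and 7 without FcgKO IFNγ replicate 2.

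Of the MYC network and MYC targets, 28 of 32 were measured. With IFNγ, 11 fell and 2 rose in WT, beside 7.77% and 5.54% of all genes, and 9 fell and 3 rose in FcgKO, beside 7.15% and 5.07%. The list medians were -0.08 and -0.12. The WT median was -0.14 without WT unstimulated replicate 1 or WT IFNγ replicate 1, -0.16 without WT unstimulated replicate 2 and -0.19 without WT IFNγ replicate 2. That of FcgKO was -0.18 without FcgKO unstimulated replicate 1 and -0.19 without FcgKO IFNγ replicate 1. With the filter on dim genes the medians were -0.37 and -0.36, and with an offset of 16 they were -0.20 and -0.14. The spermidine synthase gene Srm fell by 0.88 on the log2 scale in WT (adjusted p = 0.000168) and by 0.78 in FcgKO (adjusted p = 0.000418). The cyclin gene Ccnd2 went the other way, with the largest called change of the list in WT. It rose from a mean of 112.6 to 220.7 in WT (log2 1.26, adjusted p = 5.52e-05). In FcgKO Ccnd2 rose from 116 to 197.8 (log2 1, adjusted p = 0.000309), and both calls held in all 16 alternatives. Max, the dimer partner gene of MYC, rose from 999.1 to 1629 in WT (log2 0.73, adjusted p = 0.000214) and from 1045 to 2109 in FcgKO (1.03, adjusted p = 1.61e-05). Between the genotypes 0 of the 28 were called by limma without IFNγ, beside 0.82% of all genes. At an unadjusted p below 0.05 there was 1, beside 8.41%. With IFNγ 1 was called, beside 2.87% of all genes, and it was Max (0.38, adjusted p = 0.0473). The Max call held in 6 of 16 alternatives and was lost without either unstimulated FcgKO replicate, either WT replicate with IFNγ and FcgKO IFNγ replicate 2.

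Of 6 measured NR4A relatives and partners, 0 were called by limma in the WT response, beside 13.3% of all genes. At an unadjusted p below 0.05 there were 2, beside 22.2% of all genes. In FcgKO 1 fell with IFNγ, beside 7.15% of all genes. It was Rxrb, a retinoid receptor gene (log2 -0.48, adjusted p = 0.00769). The Rxrb call was lost without FcgKO unstimulated replicate 1 or FcgKO IFNγ replicate 2. Of 10 measured heat shock genes, which respond to handling stress, 0 were called in any comparison by limma. At an unadjusted p below 0.05 the most were 4 of 10, in the FcgKO response, beside 21.6% of all genes. The list medians lay between -0.08 and -0.04. At most 1 rose and 1 fell in WT without single replicates of the unstimulated groups, and 1 fell in FcgKO without FcgKO unstimulated replicate 2.

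The genes whose values ran most like those of a member were sought among 735 or 736 genes with a range of at least 1 on the log2 scale over the 8 arrays. All points share the 4 group contrasts, so the correlations are a description. For Egr2 they were Abcc1, a transporter gene, and Tpsab1, a tryptase gene of mast cells, both with Pearson r = 0.979. Tpsab1 read 381.7 and 399.6 in unstimulated WT samples and 442.1 and 394.9 with IFNγ, against 219 and 238.9, and 191.4 and 206.6, in FcgKO. For Ier3 they were Cbr3, a carbonyl reductase gene (r = 0.982), and Dnmt3l, a regulator gene of DNA methyltransferases (r = 0.981). For Zfp36 they were Cd164, a sialomucin gene (r = 0.968), and Trim30d (r = 0.964). Egr1, Egr3, Nab2, Ier2, Nr4a1 and Myc varied by less than 0.5 over the arrays on that scale, so none were sought for them.

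Most markers of mast cells moved with the genotype, as Egr2 and Ier3 did. Of 10 markers 9 were measured, of which 5 were lower in the unstimulated FcgKO cultures and 7 in those given IFNγ, with medians of -0.67 and -0.77, beside 0.53% and 1.63% of all genes lower. Without WT unstimulated replicate 1 or FcgKO unstimulated replicate 2 the 5 became 3, and without FcgKO unstimulated replicate 1 they became 2. Tpsab1 was lower by a log2 difference of -1.23 with IFNγ (adjusted p = 3.56e-05), and Cma1, a chymase gene, by -1.22 (adjusted p = 0.000848). The summed intensity of the 9 was 2767 to 3009 in unstimulated WT samples and 3273 to 3567 with IFNγ, against 1728 to 1943 and 1892 to 2321 in FcgKO. Hdc, the histidine decarboxylase gene, named after its values were seen, went another way. It rose with IFNγ by 1.29 on the log2 scale in both genotypes (adjusted p = 0.000554 in WT and 0.000631 in FcgKO) and differed by -0.03 between genotypes in both conditions. Without Hdc, a choice made after seeing the data, the sum of the other 8 was 2534 to 2773 in unstimulated WT samples and 2820 to 2964 with IFNγ, against 1521 to 1685 and 1456 to 1720 in FcgKO. Ms4a2, a defining mast cell marker, was under the array median on all 8 arrays, and the other 8 were over it on all of them. The part of these cells in the levels of Egr2 and Ier3 was not tested. Of the neutrophil, B cell, T cell, eosinophil, dendritic cell, NK cell and fibroblast or mesothelium markers, 0 were called between genotypes in either condition. At an unadjusted limma p below 0.05 the most in a list were 2 of 6 neutrophil markers, in each condition. This stood beside 8.41% of all genes without and 12.5% with IFNγ. Of the 8 macrophage markers, 0 were called without IFNγ. With it, Fcgr1 was higher in FcgKO (log2 1.1, limma adjusted p = 2.1e-05), and Timd4 (-0.85, adjusted p = 0.0463) and Mertk (-0.71, adjusted p = 0.00891) were lower. These are 1 higher and 2 lower, beside 1.25% and 1.63% of all genes. With a block for the replicate number, 2 of the 5 measured B cell markers were lower in FcgKO in each condition. The summed B cell markers were higher in replicate 1 than in replicate 2 of every group. They read 2537 and 1730 in unstimulated WT, 1922 and 1414 in unstimulated FcgKO, 2404 and 1623 in WT with IFNγ and 1665 and 1323 in FcgKO with IFNγ, so each FcgKO sample was below the WT sample of the same number. The part of B cells in the levels of the members was not tested. The sums of the 6 neutrophil markers, led by S100a8, were 3060 to 3967 in unstimulated WT and 4185 to 4471 in WT with IFNγ, against 2584 to 2713 and 2990 to 3415 in FcgKO.

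**Figure D4:**
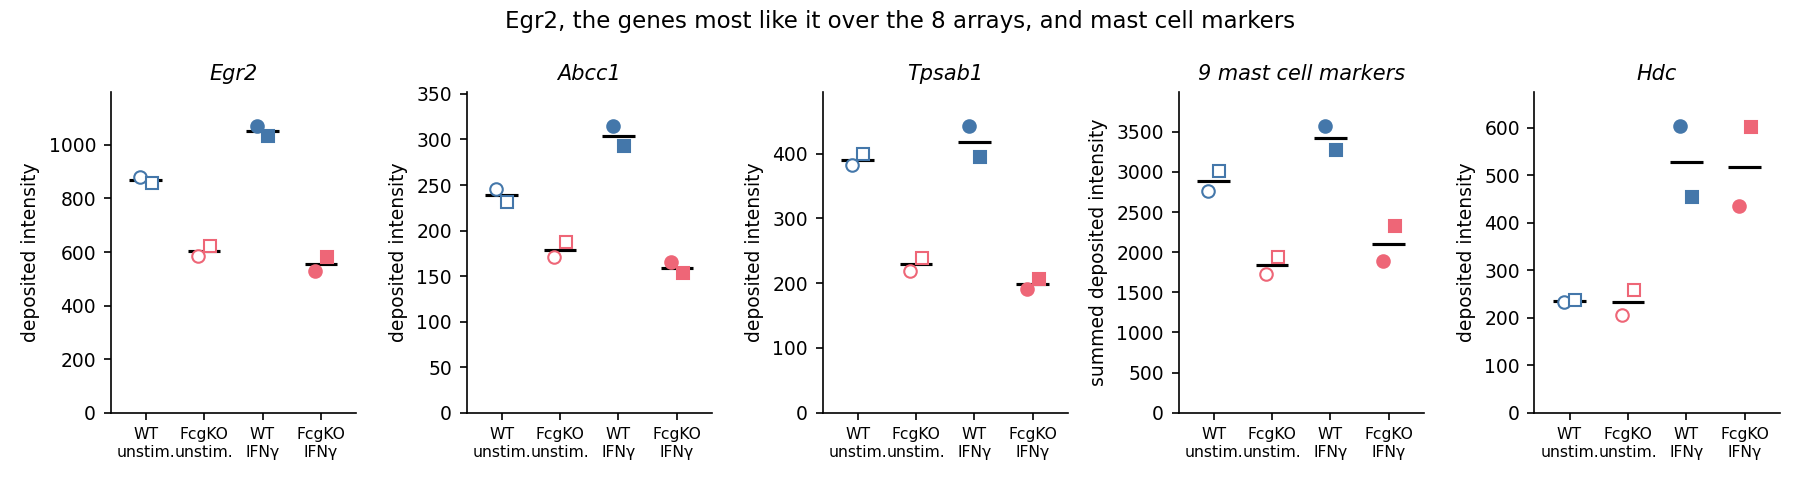
Deposited intensity (linear axes from 0) of Egr2, of the 2 genes most like it over the 8 arrays, Abcc1 and Tpsab1, of the sum over 9 mast cell markers and of Hdc, which is among these, by group, with circles for replicate 1, squares for replicate 2, blue for WT, red for FcgKO, filled symbols for IFNγ and a bar at the mean. All 4 FcgKO samples lay below all 4 WT samples in each panel but that of Hdc, where the genotypes overlapped.

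By position, none of the 9 members lies on the chromosome of Fcer1g. In the reference gene table (GRCm38.p6), Fcer1g is at chr1:171229572-171234349. Egr2 lies at chr10:67534469-67542188, Ier3 at chr17:35821713-35822911 and Zfp36 at chr7:28376784-28379228.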

How the data were processed

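RNA of 8 samples was hybridised to bead arrays, per the labels. The submitters' processing notes name GenomeStudio, with no version. The authors' deposited intensity values, 82.1 to 22479 on a linear scale, differed by at most 0.00585 in log2 between the sorted columns, which shows a normalisation across arrays whose method is not stated in the labels. No value was below 82.1, so the background remained in them. A second deposited table names its 16 columns by array number only, and none of its values was used.

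Intensities were background-corrected with normexp (offset 50, which understates folds of dim genes) and log2-transformed without a second normalisation. Each gene took its brightest probe by mean over the arrays. Genes were named from the platform annotation (23978 of 25697 probes). One mean per group was fitted (limma 3.58.1, R 4.3.3, 4 residual degrees of freedom), with Benjamini-Hochberg adjustment over 16593 genes. A fit of all probes gave the other Myc probe. The fit was tested on simulated data. Members, lists and settings were chosen with earlier results of these data known. Named genes were the members, the 2 genes most correlated with each member that varied, and at most 4 called genes per list and comparison. Arrays have no read depth, and their number limits the precision. The array median served as the lower end of the scale and is not a detection call. A bound set the brighter group against the higher of the median and the probe. Alternatives were no background correction, an offset of 16, quantile normalisation, an intensity trend with robust prior, the mean of all probes, a filter on dim genes, fits of the compared groups alone, a replicate block and leaving out each sample.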

Additional observations from a re-analysis of the deposited data

Results flagged for a closer look

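Egr2 and Ier3 are singled out because their responses to IFNγ ran in opposite directions in the genotypes without overlap of the groups. With IFNγ, both samples were higher in WT and both were lower in FcgKO. How many of all genes meet this rule was not counted, so the rule does not set these members apart from other genes. For Egr2 the difference of the log2 responses was -0.41 (unadjusted p = 0.00292, limma adjusted p = 0.388), and for Ier3 it was -0.38 (unadjusted p = 0.0218, adjusted p = 0.586). Neither passed the correction over all genes, and leaving out 1 array moved the Ier3 value from -0.53 to -0.23 and that of Egr2 from -0.49 to -0.34. Of the responses themselves only that of Egr2 in WT was called (0.28, limma adjusted p = 0.0297). Those of Egr2 in FcgKO (-0.13, adjusted p = 0.406), Ier3 in WT (0.08, adjusted p = 0.78) and Ier3 in FcgKO (-0.30, adjusted p = 0.082) were not, so the opposite directions rest on the order of the samples. The summed intensity of the mast cell markers other than Hdc was 2534 to 2773 without and 2820 to 2964 with IFNγ in WT, against 1521 to 1685 and 1456 to 1720 in FcgKO, and its part in these values was not tested.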

How the results depend on the processing

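Egr2 and Ier3 stayed lower in FcgKO with IFNγ in all 16 alternatives, at log2 differences from -1.05 to -0.89 and from -0.91 to -0.61. Members called numbered 0 with an offset of 16 in the WT response, the FcgKO response and the unstimulated genotypes, 1 in the WT response with an intensity trend and robust prior, and 2 in the FcgKO response with the replicate block. Over all genes, 90 were called between unstimulated genotypes with no background correction, 80 with an offset of 16 and 237 with the replicate block, and 287 between genotypes with IFNγ at the offset of 16. For the difference of responses, 0 were called with no background correction or the mean of all probes, 22 with the trend and 25 with the replicate block. The causes were not tested. The replicate numbers do not name shared animals, and same-numbered samples deviated together with r from -0.006 to 0.236, so the block is not a pairing from the labels. The B cell marker sums were nevertheless higher in replicate 1 of each group.

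With each sample left out in turn, members called ranged from 0 to 2 in both responses, from 0 to 1 between unstimulated genotypes, at 2 with IFNγ and at 0 for the difference of responses. All genes called ranged from 1399 to 2261 in WT, 1216 to 2203 in FcgKO, 36 to 180 and 218 to 543 between genotypes without and with IFNγ, and 1 to 37 for the difference. Log2 differences near 0 changed sign in these fits. In the WT response, Egr3 ran from -0.095 to 0.147. In the FcgKO response, Egr3 ran from -0.133 to 0.002 and Nab2 from -0.089 to 0.022. Between unstimulated genotypes, Egr3 ran from -0.025 to 0.217, Nab2 from -0.044 to 0.031, Zfp36 from -0.074 to 0.085 and Myc from -0.058 to 0.117. With IFNγ, Egr3 ran from -0.062 to 0.072, Nab2 from -0.051 to 0.059, Zfp36 from -0.104 to 0.141 and Myc from -0.032 to 0.004. For the difference of responses, Egr3 ran from -0.212 to 0.03, Nab2 from -0.045 to 0.066, Zfp36 from -0.11 to 0.136 and Myc from -0.131 to 0.044. Of the single-gene values under alternatives, 502 kept direction and side of the threshold, 27 changed sign, 19 lost a call and 5 gained one. Signal over background limits Egr3, Ier2, Nr4a1 and Myc.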
